A study of Mus musculus with 10 samples.

Results

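The genes described here encode the collagens, the laminins and 10 large glycoproteins of the extracellular matrix. They were chosen by name alone: every listed gene symbol of the form Col, number, a, number, every symbol from Lama, Lamb or Lamc with a number from 1 to 5, and the named genes Fn1, Nid1, Nid2, Hspg2, Sparc, Tnc, Vcan, Fbn1, Fbn2 and Eln. This gave 58 genes (37 collagens, 11 laminins and 10 others) of the 20006 listed. RNA was sequenced from 10 single whole mouse embryos of day 7.5 of gestation, during gastrulation. Of these, 5 were labelled as mutant for both Axin1 and Axin2, genes of the scaffold on which β-catenin is marked for degradation in the WNT pathway, and 5 were labelled wild type (WT). Sources used here do not give the alleles, the strain, the litters or the sex of the embryos, so p-values measure the spread between these embryos and no more. Levels are given as scaled counts, which are read counts divided by a size factor for each library. Because each library holds a whole embryo, fewer cells of a type and less RNA per cell cannot be told apart.

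The matrix of the gastrula is mostly basement membrane, a thin sheet that underlies the epiblast and the visceral endoderm and that lines the yolk sac. Laminins, which are trimers of an α, a β and a γ chain, form a first network on the cell surface, type IV collagen forms a second one, and nidogens and the proteoglycan perlecan link them. Fibronectin lies between the germ layers, where it is needed for mesoderm migration, and parietal endoderm secretes large amounts of laminin and type IV collagen into Reichert's membrane. Fibrillar collagens such as types I and III belong to mesenchyme and connective tissue, with fibril-associated collagens on the fibril surface, whereas transmembrane collagens are held in the plasma membrane.

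The 10 libraries held 20744547 to 28505209 reads in genes, with reads for 18564 to 19184 genes, and 154414 reads over the 10 embryos fell in the most deeply covered matrix gene, Fn1. Axin1 was lower in every mutant than in any WT embryo, at 819.5 to 2336 scaled counts in mutants and 3314 to 3843 in WT, and the highest mutant value was that of mutant 4. Axin2 differed by −0.01 in log2 (adjusted p = 0.981), and its level did not separate the groups. Summed epiblast markers reached 14540 to 18753 scaled counts in mutants and 41729 to 57044 in WT, with Otx2, Fgf5 and Tdgf1 at 0 in at least 1 library. Mutant 4 stood apart from the other mutants on the first principal component (47.7% of variance), at 16.6, against 62.4 to 78.4 in the other mutants and −73.3 to −51.8 in WT. The sum of 10 trophoblast and extra-embryonic ectoderm markers was 36861 in mutant 4, against 18318 to 22138 in the other mutants and 12372 to 21971 in WT. Maternal decidua markers were highest in mutants 3 and 4.

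Counted together, matrix genes passed the test about as often as all genes did, and single genes moved in both directions. Of the 58 genes, 50 had a mean of at least 10 scaled counts over the 10 embryos and were tested, and 13 of those passed an adjusted p of 0.05 (26%), a share near the 25.1% of all 15429 genes tested. Higher in mutants were 6 (12%, against 11.4% of all genes), namely Col26a1, Col25a1, Col1a1, Col24a1, Col6a1 and Fn1. Lower in mutants were 7 (14%, against 13.8% of all genes), namely Lamb3, Col9a3, Col13a1, Col9a2, Col16a1, Col18a1 and Lama5. The groups did not overlap in 8 genes, 3 of the 50 with every mutant above every WT embryo (7.14% of all genes) and 5 with every mutant below (9.97% of all genes, and 17.1% in either direction). The median log2 fold change was −0.22 for the 50 matrix genes and 0.01 for all genes. Tests were made with limma on log2(scaled count + 1) with Benjamini-Hochberg adjustment over all 15429 genes. The call for Fn1 was lost when any 1 of 7 embryos was left out and that for Col6a1 when any 1 of 6 was, whereas the 8 genes without overlap passed in each alternative that tested them.

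**Figure D1:**
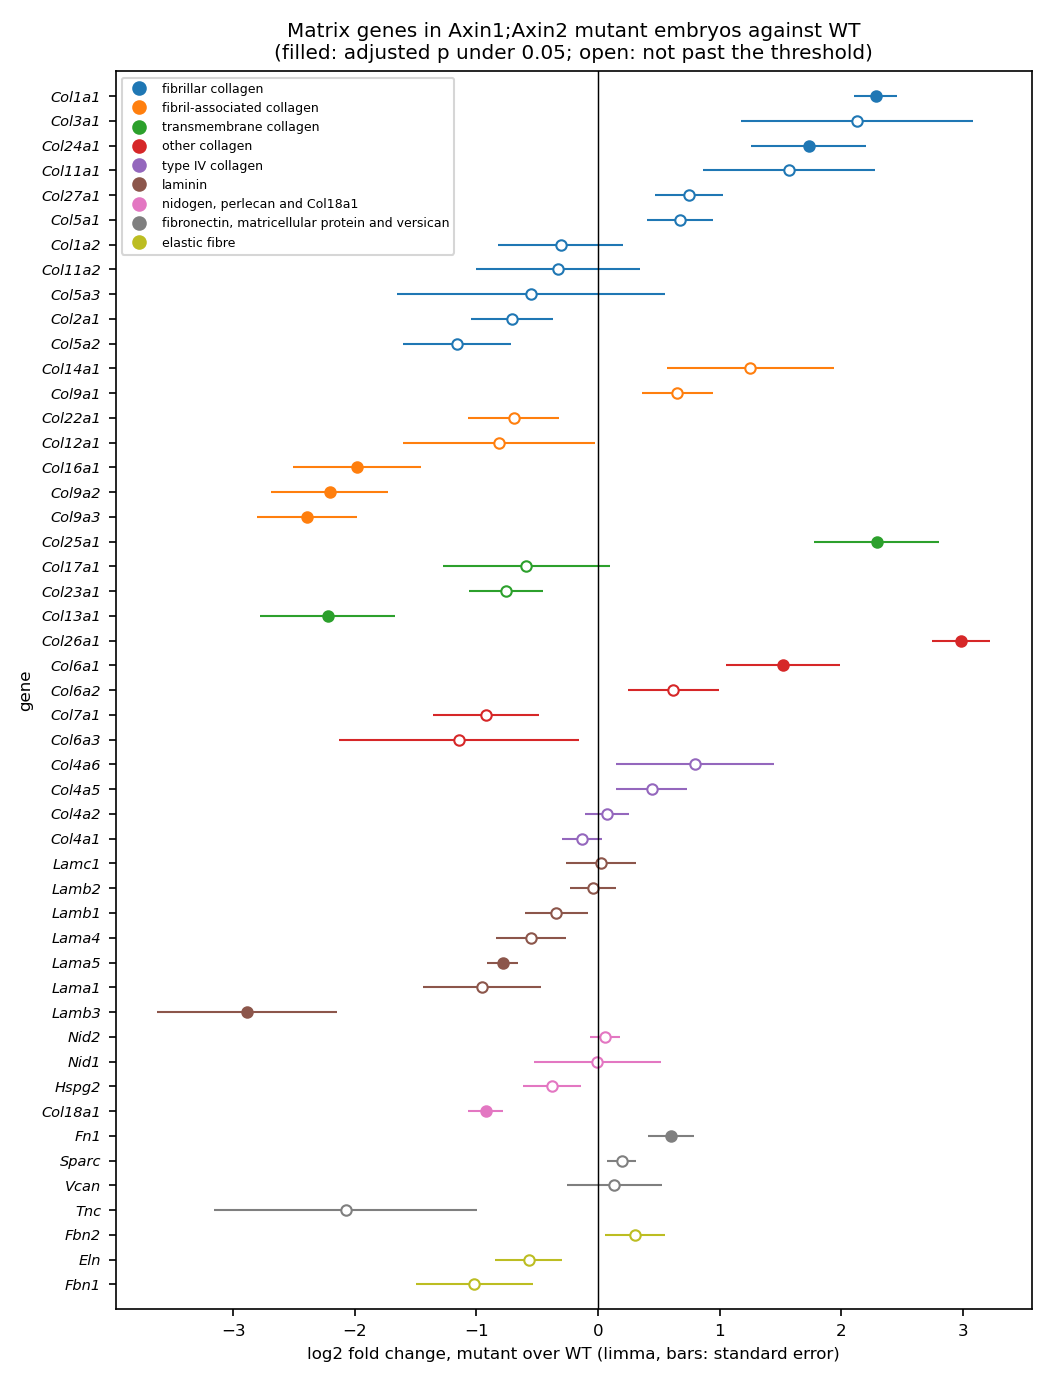
Log2 fold change (x axis) of 49 of the 50 matrix genes tested (y axis), mutant over WT, with its standard error as a bar, coloured by class. The 13 filled points passed an adjusted p of 0.05, 6 to the right of 0 and 7 to the left, and the largest values are 2.99 for Col26a1 and −2.89 for Lamb3.

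To set the genes that changed beside their start sites, the bases before each start were read from RefSeq promoters (GRCm38.p6, the assembly of mm10). A promoter was held for 39 of the 58 genes, in 44 windows of 250 bases, and Col1a1 and Col26a1 were not among them. Shown are the windows of the genes that passed the threshold and whose window holds no annotated exon, each 5′ to 3′ on the strand of its gene. Capitals mark the TATA box core TATAAA, the CCAAT box or the GC box GGGCGG, each read on both strands (the GC box as CCGCCC on the other), and the marked motifs do not overlap in these windows.
Col24a1, higher in mutants, chr3:145292222-145292471, plus strand: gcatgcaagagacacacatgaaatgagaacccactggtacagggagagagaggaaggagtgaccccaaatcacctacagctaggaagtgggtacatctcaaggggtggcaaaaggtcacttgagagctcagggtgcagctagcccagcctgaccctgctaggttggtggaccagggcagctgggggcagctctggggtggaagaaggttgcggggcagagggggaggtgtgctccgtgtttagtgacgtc
Col25a1, higher in mutants, chr3:130180595-130180844, plus strand: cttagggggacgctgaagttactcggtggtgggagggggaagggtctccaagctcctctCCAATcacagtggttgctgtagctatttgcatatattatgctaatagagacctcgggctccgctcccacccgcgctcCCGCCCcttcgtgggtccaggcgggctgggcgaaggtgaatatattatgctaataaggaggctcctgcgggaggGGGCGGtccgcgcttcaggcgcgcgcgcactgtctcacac
Col13a1, lower in mutants, chr10:61979109-61979358, minus strand: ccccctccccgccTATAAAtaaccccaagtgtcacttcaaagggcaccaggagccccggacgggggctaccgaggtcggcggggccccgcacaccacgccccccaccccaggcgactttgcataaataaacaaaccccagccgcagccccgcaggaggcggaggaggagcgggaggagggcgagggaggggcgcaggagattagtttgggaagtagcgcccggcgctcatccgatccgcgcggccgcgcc
Lama5, lower in mutants, chr2:180225860-180226109, minus strand: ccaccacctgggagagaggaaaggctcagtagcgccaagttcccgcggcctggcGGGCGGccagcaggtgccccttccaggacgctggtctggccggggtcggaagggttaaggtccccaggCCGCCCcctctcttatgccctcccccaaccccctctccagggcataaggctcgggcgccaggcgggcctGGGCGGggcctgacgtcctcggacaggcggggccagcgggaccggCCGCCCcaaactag
The RefSeq start behind the Col25a1 window lies 49344 bases inside the GENCODE gene model, whereas the other 3 windows end where their gene models begin. Lama5 has 4 GC boxes and none of the other motifs, Col25a1 has 2 GC boxes and a CCAAT box 191 bases before that inner start, Col13a1 has a TATA box core 237 bases before its start, and the Col24a1 window has none of these letters. Among all 44 windows of matrix genes, 28 (63.6%) held a GC box, against 32.7% of 32851 windows of all genes. Counted by gene, it was before 1 of 3 higher genes, 4 of 6 lower genes and 18 of 25 genes tested but not past the threshold. A CCAAT box was in 16 windows (36.4%, against 33.8%) and a TATA box core in 6 (13.6%, against 12.4%). CTTTGAT, the core bound by TCF and LEF factors downstream of β-catenin, likewise read on both strands, was in 1 window (2.27%, against 3.21%), that of Col9a2. These are matches of letters and do not show binding.

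Among the 11 fibrillar collagens, all of which were tested, Col1a1 and Col24a1 rose (18.2%, against 11.4% of all genes) and the other 9 did not pass the threshold. The median log2 fold change of the class was 0.68. Col1a1 (ENSMUSG00000001506.10, chromosome 11, 94936224 to 94953042, plus strand, build mm10), the α1 chain of type I collagen, had 4547, 2350.5, 3482, 2635 and 3313 scaled counts in mutants 1 to 5, against 519.9, 784, 586, 647 and 761 in WT embryos 1 to 5. Every mutant lay well above every WT embryo, with means of 3266 ± 855 in mutants and 659.6 ± 113 in WT (SD, n = 5 each) and a log2 difference of 2.28 (SE 0.18, adjusted p = 1.12e-05). The α2 chain of the same trimer, Col1a2, had 99.1, 91.9, 446, 672 and 226 scaled counts in mutants, against 149.6, 327, 325, 265 and 432 in WT. Mutants 1 and 2 lay below all WT embryos, mutants 3 and 4 above them and mutant 5 among them. The log2 fold change was −0.31 (SE 0.52, adjusted p = 0.698), and it was −1.15 without mutants 3 and 4 (adjusted p = 0.0449, an alternative chosen after the data were seen).

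Col24a1 (ENSMUSG00000028197.4, chromosome 3, 145292472 to 145552011, plus strand), a minor fibrillar collagen, had 86.8, 21.1, 50.4, 39.4 and 76.0 scaled counts in mutants, against 16.7, 19.1, 4.54, 16.2 and 21.6 in WT. The lowest mutant lay just below the highest WT embryo and all other mutants lay above it (log2 fold change 1.73, SE 0.48, adjusted p = 0.020). Without mutant 1 the adjusted p was 0.0525. Col3a1, whose trimer accompanies type I collagen in soft connective tissue, had 13.2, 38.3, 410.0, 998 and 119 scaled counts in mutants, against 10.9, 39.3, 37.5, 23.2 and 37.6 in WT. Mutants 3, 4 and 5 were above all WT embryos and mutants 1 and 2 were within the WT range, and the gene did not pass in limma (2.13, SE 0.95, adjusted p = 0.122). Col3a1 passed in the count models, at 3.40 in edgeR (adjusted p = 0.0254) and 3.42 in DESeq2 (adjusted p = 0.00286), and in limma without mutant 1 (2.90, adjusted p = 0.0266). In limma it was 1.37 without mutant 4 (adjusted p = 0.222) and 0.54 without mutants 3 and 4 (adjusted p = 0.583). Without mutant 4 and WT 1 it was 1.06 (adjusted p = 0.377).

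The chains of type V collagen, which starts and sizes type I fibrils, did not pass the threshold. Col5a1 had 600.3 to 1584 scaled counts in mutants and 459.7 to 1063 in WT (0.68, SE 0.27, adjusted p = 0.0865), and Col5a2 had 53.8 to 242 in mutants and 98.0 to 322 in WT (−1.16, SE 0.44, adjusted p = 0.0731). Col5a1 passed as higher in DESeq2 (adjusted p = 0.0425) and without mutant 2 (0.89, adjusted p = 0.0234), and Col5a2 passed as lower without mutant 3, without mutant 4, without WT 4 and without mutants 3 and 4. The third chain, Col5a3, stayed at 0 to 37.4 scaled counts in mutants and 0 to 26.2 in WT. Col27a1, expressed in cartilage, differed by 0.75 (SE 0.28, adjusted p = 0.0675) and passed in DESeq2 (adjusted p = 0.0277), without mutant 4 (0.95, adjusted p = 0.0131), without mutants 3 and 4 and without mutant 4 and WT 1. Col2a1, the main cartilage collagen and a notochord gene, differed by −0.71 (SE 0.34, adjusted p = 0.140). Col11a1 differed by 1.57 (SE 0.71, adjusted p = 0.125) and Col11a2 by −0.33 (SE 0.67, adjusted p = 0.758), both at under 50 scaled counts in every embryo.

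Markers of maternal decidua were highest in the embryos with the highest Col3a1 and Col1a2, mutants 3 and 4. The sum of 6 markers of maternal decidua was 528.5, 820.5, 9018, 3809 and 1069 scaled counts in mutants 1 to 5, against 264.7 to 561.0 in WT. Outside mutants 3 and 4 Col1a2 and the sum did not run alike: WT 5 had the lowest sum and the highest Col1a2 of the WT embryos, and mutants 1 and 2 had higher sums than most or all WT embryos and the lowest Col1a2. Col1a1 was highest in mutant 1. Within the list Pgr was lowest in mutant 4, at 28.3 scaled counts. In this list Prl8a2 and Prl3c1 passed as higher (33.3%, against 11.4% of all genes) and none as lower (against 13.8%). Prl3c1 was at 0 in WT 1 and WT 5, and Esr1 was at 0 in mutants 1, 4 and 5. For Col1a1 the log2 fold change was 2.33 without mutants 3 and 4, a setting that keeps mutants 2 and 5, whose sums also lay above all WT sums. The part of maternal tissue in the Col3a1, Col1a1 and Col1a2 values was not tested.

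**Figure D2:**
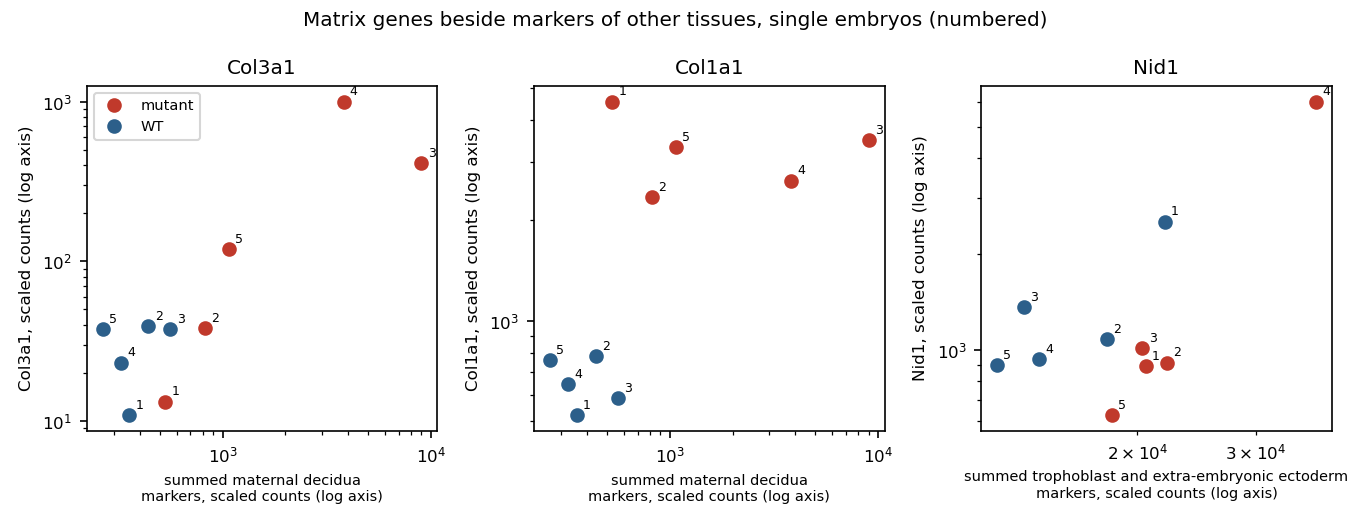
Scaled counts of Col3a1, Col1a1 and Nid1 (y axes, log scale) in each embryo, plotted against the summed scaled counts of maternal decidua markers (left and middle) or of trophoblast and extra-embryonic ectoderm markers (right; x axes, log scale), with mutants in red and WT in blue, numbered by embryo. Mutants 3 and 4 lie at the top right for Col3a1 and all mutants lie above all WT embryos for Col1a1. Mutant 4 stands alone for Nid1 at 6010.4.

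Genes for the paired chains of type I collagen departed from each other in the mutants. The ratio of Col1a1 to Col1a2 scaled counts was 45.4, 25.3, 7.80, 3.92 and 14.6 in mutants 1 to 5, against 3.46, 2.39, 1.80, 2.44 and 1.76 in WT. All mutants lay above all WT embryos, mutants 3 and 4 nearest to them, with a difference of 2.59 in mean log2 ratio (two-sided exact permutation p = 0.00794, the smallest that 252 assignments of the embryos allow; adjusted p = 0.0238 over 6 ratios). The ratio of Fbn2 to Fbn1, which encode the fibrillins of elastic microfibrils, was 7.88, 12.6, 3.59, 4.94 and 7.52 in mutants, against 3.04, 3.12, 2.92, 1.95 and 2.51 in WT. The groups did not overlap here either (difference 1.32, exact p = 0.00794, adjusted p = 0.0238), although neither gene passed on its own. The ratios of Lama5 to Lama1 (0.17, adjusted p = 0.867), Lamb2 to Lamb1 (0.30, adjusted p = 0.536) and Nid2 to Nid1 (0.06, adjusted p = 0.968) did not differ past the threshold in exact permutation tests.

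**Figure D3:**
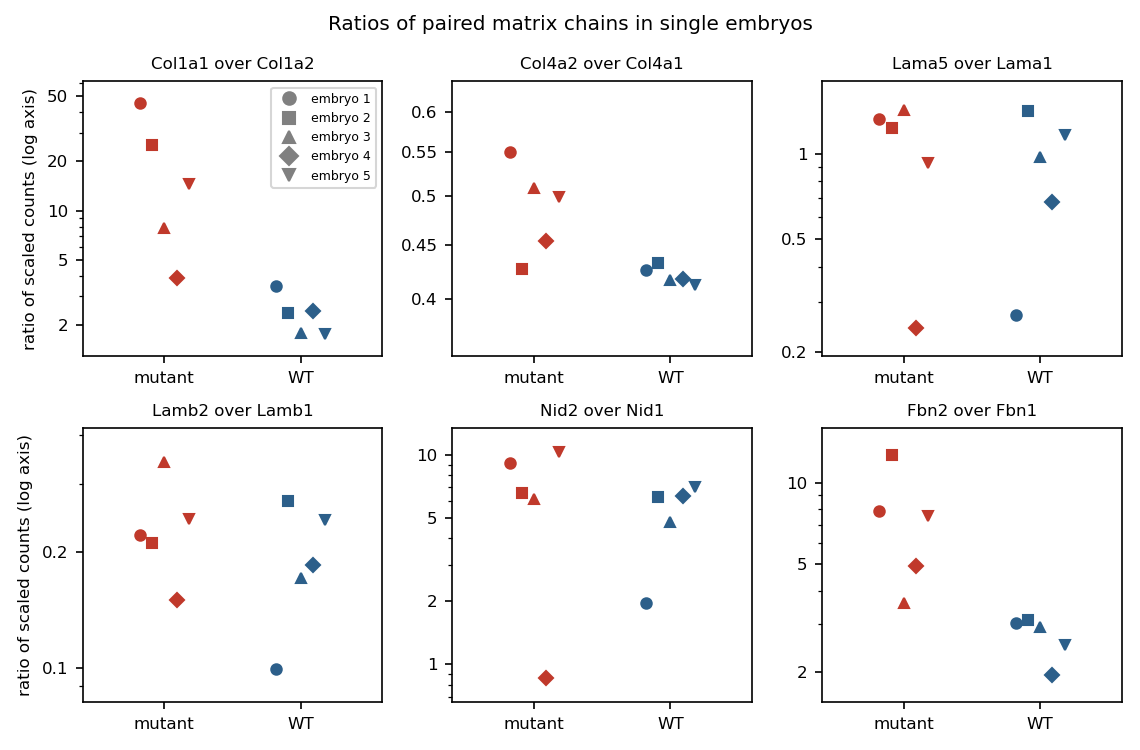
Ratio of the scaled counts of paired matrix genes (y axes, log scale) in single embryos, mutants in red at the left and WT in blue at the right of each panel, with a symbol for each embryo number. The groups separate for Col1a1 over Col1a2 (3.92 to 45.4 in mutants, 1.76 to 3.46 in WT) and for Fbn2 over Fbn1 (3.59 to 12.6 in mutants, 1.95 to 3.12 in WT), and overlap in the other 4 panels.

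Fibril-associated collagens fell or did not pass, with 3 of 7 lower (42.9%, against 13.8% of all genes) and none higher (median log2 fold change −0.81). Col9a3 (ENSMUSG00000027570.15, chromosome 2, 180597790 to 180622189, plus strand) and Col9a2 (ENSMUSG00000028626.5, chromosome 4, 121039385 to 121055322, plus strand) encode chains of type IX collagen, the molecule that coats cartilage fibrils. Col9a3 had 26.4, 44.0, 19.0, 115 and 76.9 scaled counts in mutants, against 301, 266, 220.3, 199 and 252 in WT. All mutants lay below all WT embryos, with mutant 4 nearest, and the log2 fold change was −2.39 (SE 0.42, adjusted p = 0.00181). Col9a2 had 23.6, 7.66, 2.24, 9.10 and 13.3 scaled counts in mutants, against 51.8, 42.3, 30.7, 50.5 and 55.4 in WT, again with no overlap (−2.21, SE 0.48, adjusted p = 0.0065). Col9a1, the remaining type IX chain, did not pass: it had 219, 261, 141, 115 and 394 scaled counts in mutants, against 113, 136, 139, 149 and 119 in WT (0.65, SE 0.29, adjusted p = 0.121). Mutants 1, 2 and 5 were above all WT embryos, and mutants 3 and 4 were within their range. Col9a1 passed as higher in DESeq2 (0.79, adjusted p = 0.0383), without mutant 4 (0.86, adjusted p = 0.0268) and without mutants 3 and 4 (1.11, adjusted p = 0.00429).

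Col16a1, a fibril-associated collagen of several connective tissues, had 7.55, 12.4, 20.2, 68.7 and 13.3 scaled counts in mutants, against 60.2, 57.4, 44.3, 108 and 132 in WT. Only mutant 4 reached the WT range (−1.98, SE 0.52, adjusted p = 0.0168), and without WT 5 the adjusted p was 0.0512. Of the rest, Col14a1 differed by 1.25 (adjusted p = 0.202), Col22a1 by −0.70 (adjusted p = 0.198) and Col12a1 by −0.81 (adjusted p = 0.483), at 0 to 69.7 scaled counts.

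The transmembrane collagens split, with 1 of 4 higher (25%, against 11.4% of all genes) and 1 lower (25%, against 13.8%). Col25a1 (ENSMUSG00000058897.17, chromosome 3, 130131501 to 130599877, plus strand) rose to 30.2, 46.0, 38.1, 38.4 and 48.4 scaled counts in mutants, against 9.19, 9.06, 15.9, 1.01 and 10.3 in WT. The groups did not overlap and the mutants were closely spaced (2.29, SE 0.51, adjusted p = 0.0075), although the gene rests on 249 reads in all 10 embryos. Col13a1 (ENSMUSG00000058806.14, chromosome 10, 61838236 to 61979108, minus strand), which sits at cell adhesions and neuromuscular junctions, fell to 36.8, 48.8, 12.3, 172 and 130.1 scaled counts in mutants, against 273, 275, 232, 269 and 266 in WT. All mutants were lower than all WT embryos, and mutants 4 and 5 lay nearest to them (−2.22, SE 0.56, adjusted p = 0.013). Col23a1 differed by −0.76 (SE 0.30, adjusted p = 0.0871; 0.0438 without WT 1) and Col17a1, a hemidesmosome collagen, by −0.59 (SE 0.69, adjusted p = 0.565).

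Col26a1 (ENSMUSG00000004415.15, chromosome 5, 136741759 to 136883209, minus strand), a small collagen with an EMI domain, had the largest rise among the matrix genes that passed. It had 1628, 1289.7, 1244, 868 and 1988 scaled counts in mutants, against 116, 192, 136, 233 and 196 in WT. No mutant was near the WT range, with means of 1404 ± 423 in mutants and 175 ± 47.7 in WT (SD, n = 5 each), a log2 difference of 2.99 (SE 0.24, adjusted p = 1.27e-05) and 2.85 to 3.24 over the alternatives. Of the type VI chains, which form beaded filaments, Col6a1 had 125, 56.5, 131, 128 and 41.8 scaled counts in mutants, against 20.1, 20.1, 17.0, 75.8 and 43.2 in WT. Mutants 1, 3 and 4 were above all WT embryos and mutants 2 and 5 were within their range (1.52, SE 0.47, adjusted p = 0.0328). When mutant 1, 3 or 4 or WT 1, 2 or 3 was left out, adjusted p was 0.0554 to 0.0797. Its partner Col6a2 differed by 0.62 (SE 0.37, adjusted p = 0.247; 0.96 and 0.0300 without mutant 2) and Col6a3 by −1.14 (SE 0.99, adjusted p = 0.425; −2.60 and 0.0449 without mutants 3 and 4). Col7a1, the collagen of anchoring fibrils, differed by −0.92 (SE 0.43, adjusted p = 0.139; 0.0485 without mutants 3 and 4).

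**Figure D4:**
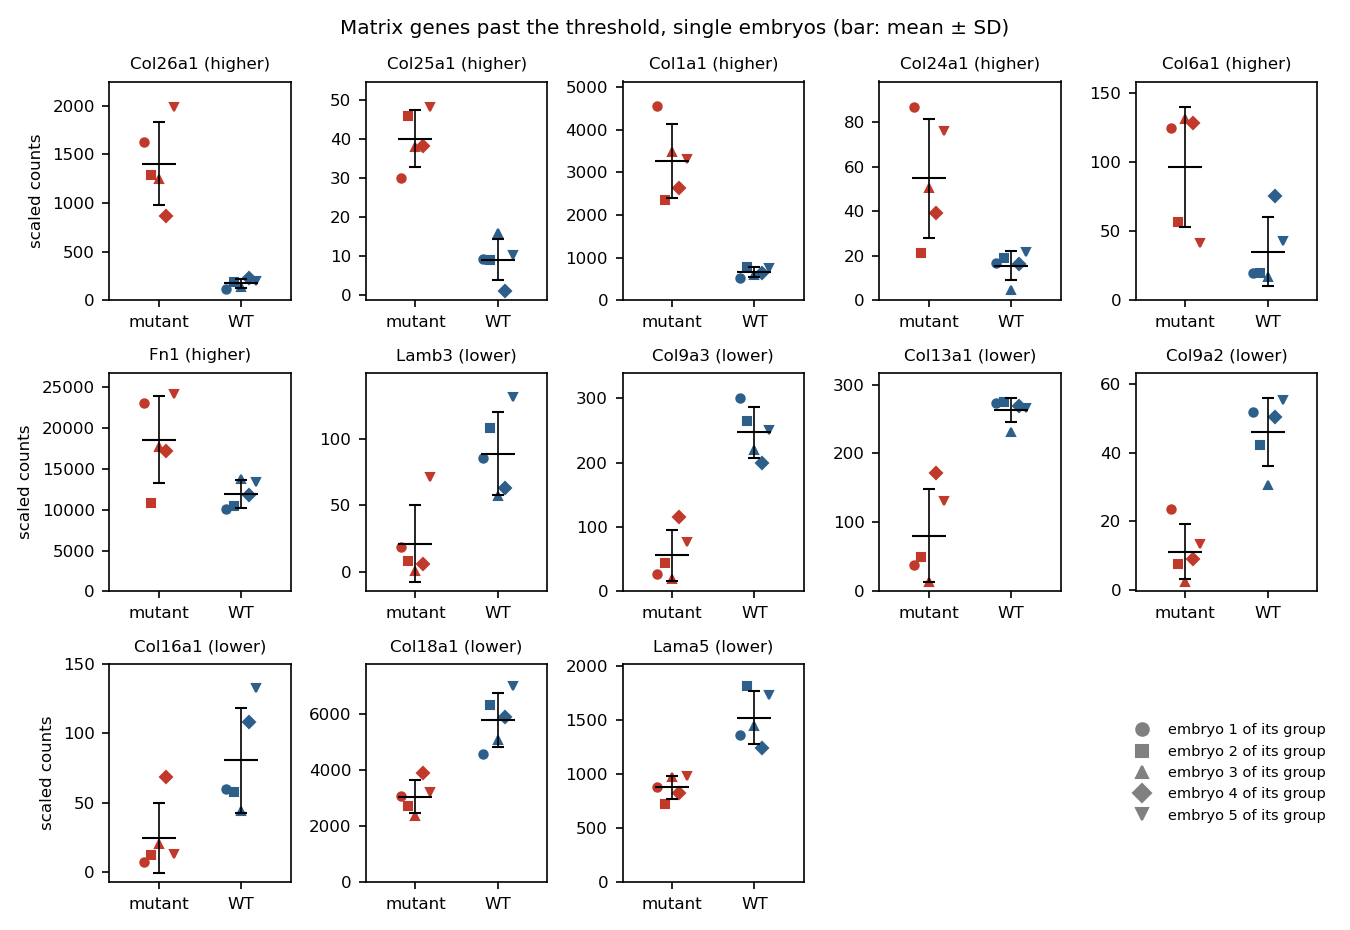
Scaled counts (y axes, linear) of the 13 matrix genes that passed the threshold in single embryos, mutants in red at the left and WT in blue at the right, with a symbol for each embryo number and the mean ± SD as a black bar. In 8 panels the groups do not overlap, as for Col26a1 (868 to 1988 in mutants, 116 to 233 in WT), and in Col24a1, Col6a1, Fn1, Lamb3 and Col16a1 they do.

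Type IV collagen, the network collagen of basement membranes, did not pass in any of the 4 chains tested (against 25.1% of all genes). Col4a1 had 11340.3, 9172, 8276, 14078 and 10368 scaled counts in mutants, against 16201, 12519.8, 9515, 10471 and 9832 in WT (−0.13, SE 0.17, adjusted p = 0.595). Col4a2 had 6236, 3917, 4213, 6382 and 5177 in mutants, against 6896, 5416, 3965, 4376 and 4054 in WT (0.07, SE 0.18, adjusted p = 0.793). Both genes were high in mutant 4 and WT 1, and the groups overlapped over most of their range. The genes lie head to head on chromosome 8, and the GENCODE M21 models of their first exons share 22 bases, printed here on the plus strand because reads there cannot be assigned to either gene.
Col4a1 and Col4a2, shared first bases, chr8:11312805-11312826: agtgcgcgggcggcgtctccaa
The ratio of Col4a2 to Col4a1 was 0.550, 0.427, 0.509, 0.453 and 0.499 in mutants, against 0.426, 0.433, 0.417, 0.418 and 0.412 in WT. Mutant 2 lay within the WT range and the other mutants above it (difference 0.21 in mean log2 ratio, exact permutation p = 0.0159, adjusted p = 0.0317). With any 1 embryo left out other than mutant 2 or WT 2, the adjusted p was 0.0635. Of the minor chains, Col4a5 differed by 0.44 (SE 0.29, adjusted p = 0.294) and Col4a6 by 0.80 (SE 0.65, adjusted p = 0.396).

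Laminin genes were lower in 2 of the 8 tested (25%, against 13.8% of all genes) and higher in none (against 11.4%; median log2 fold change −0.45). Lama5 (ENSMUSG00000015647.9, chromosome 2, 180176373 to 180225859, minus strand), the α5 chain of the laminins that support the epiblast and most later epithelia, had 879.5, 727, 973, 831 and 982 scaled counts in mutants, against 1363, 1819, 1442, 1247 and 1732 in WT. All mutants were below all WT embryos, with means of 878 ± 106 in mutants and 1521 ± 245 in WT (SD, n = 5 each) and a log2 difference of −0.78 (SE 0.13, adjusted p = 0.00138). Lamb3, a chain of the epidermal laminin, had 18.9, 8.62, 1.12, 6.06 and 71.2 scaled counts in mutants, against 85.3, 108, 56.8, 62.6 and 131 in WT. Mutant 5 lay within the WT range and the others below it (−2.89, SE 0.74, adjusted p = 0.0145), and in edgeR the gene did not pass (−2.06, adjusted p = 0.0631).

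The chains of the early embryonic laminin, Lama1, Lamb1 and Lamc1, varied most between embryos. Lama1 had 659, 586, 678, 3417 and 1059.8 scaled counts in mutants, against 5055, 1279, 1479.6, 1839.7 and 1482 in WT. Mutant 4 and WT 1 stood far above the rest of their groups, and the other 4 mutants lay below all WT embryos. The log2 fold change was −0.96 (SE 0.48, adjusted p = 0.167), −1.40 without mutant 4 (adjusted p = 0.0108) and −1.05 without mutant 4 and WT 1 (adjusted p = 0.00252). Lamb1 had 3142, 2252, 2594, 5897 and 3849 scaled counts in mutants, against 7210.4, 3434, 3607, 4136 and 3699 in WT (−0.34, SE 0.26, adjusted p = 0.360). Lamc1 had 3057, 1895, 3415, 6063 and 3541 in mutants, against 6146, 2992, 2781, 2988 and 2555 in WT (0.02, SE 0.29, adjusted p = 0.963). The same mutant 4 and WT 1 were highest in both, and the groups overlapped. Lamb2, the β2 chain, differed by −0.04 (SE 0.19, adjusted p = 0.893), and Lama4, an endothelial laminin chain, by −0.55 (SE 0.29, adjusted p = 0.179), or −0.82 without mutant 4 (adjusted p = 0.0115).

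Of the 4 genes that link or decorate the basement membrane, Col18a1 fell (25%, against 13.8% of all genes) and the nidogens and perlecan did not pass. Col18a1 (ENSMUSG00000001435.14, chromosome 10, 77052178 to 77166548, minus strand), a basement membrane collagen with heparan sulphate chains and the source of endostatin, had 3063, 2703, 2346, 3907 and 3198 scaled counts in mutants, against 4557, 6301, 5078, 5899 and 6976 in WT. All mutants were below all WT embryos, with means of 3043 ± 586 in mutants and 5762 ± 962 in WT (SD, n = 5 each) and a log2 difference of −0.93 (SE 0.15, adjusted p = 0.0011). Nid1, which bridges laminin and type IV collagen, had 893, 915, 1014, 6010.4 and 626 scaled counts in mutants, against 2531, 1082, 1367, 941 and 900.3 in WT (−0.00, SE 0.52, adjusted p = 0.996). Mutant 4 exceeded every other embryo by more than the whole range of the rest, and WT 1 came next. Its homologue Nid2 was even, with 8210.1, 6026, 6231, 5158 and 6475 scaled counts in mutants, against 4952, 6858, 6585, 6000.1 and 6319.7 in WT (0.06, SE 0.12, adjusted p = 0.775). Hspg2, which encodes perlecan, had 795, 479, 803, 1447 and 972 in mutants, against 1051, 1242, 1071, 855 and 1329 in WT (−0.38, SE 0.24, adjusted p = 0.271; −0.57 and 0.0471 without mutant 4).

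**Figure D5:**
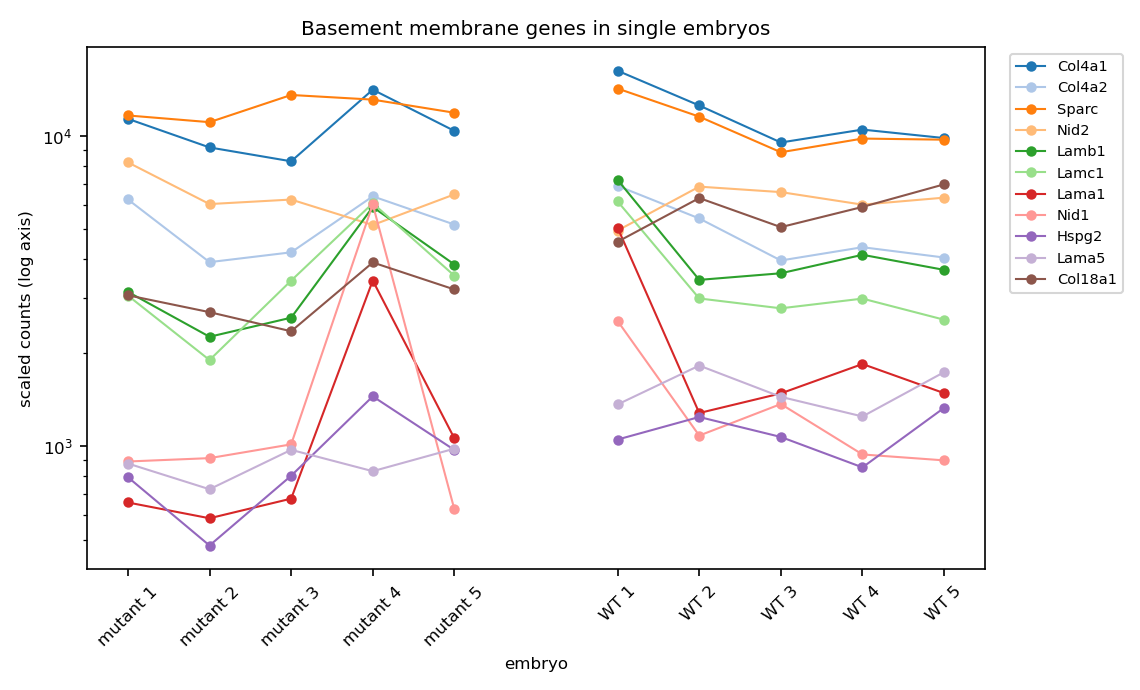
Scaled counts (y axis, log scale) of 11 basement membrane genes in each embryo, mutants at the left and WT at the right; lines only join the points of a gene and embryos have no order. Lama1, Lamb1, Lamc1 and Nid1 peak in mutant 4 and WT 1, whereas Lama5 and Col18a1 are lower in all mutants than in any WT embryo.

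Summed markers of parietal endoderm and trophoblast were highest in mutant 4 and, among WT embryos, in WT 1, which also had the highest Lama1, Lamb1, Lamc1 and Nid1 of their groups. The sum of 8 parietal endoderm markers was 23609 scaled counts in mutant 4 and 9325 to 11417.5 in the other mutants, against 14412 in WT 1 and 7337 to 10937 in the other WT embryos. Of the 7 tested, Sox7 was higher (14.3%, against 11.4% of all genes) and Plat lower (14.3%, against 13.8%) in mutants, and Gkn2 was at 0 in all mutants. In the trophoblast list, whose sums are given above, none of 10 genes passed (against 25.1% of all genes) and Tpbpa was at 0 in at least 1 library. The sums of mutant 4 rested on a few genes, among them Krt19 (14262 scaled counts), Prl3d1 (9979) and Tfap2c (9354). Others went the opposite way, with Eomes (491), Elf5 (145.5), Rhox5 (8595), Sox7 (866) and Pth1r (4162) lower in mutant 4 than in any other mutant. Mutant 4 also had the highest blood and endothelium sum, at 9661, against 4288 to 4941 in the other mutants and 3098 to 4336 in WT. Its visceral endoderm sum was the lowest, at 103162, against 180144 to 194707 in the other mutants and 121729 to 170263 in WT. The part of these tissues in the laminin and nidogen values was not tested. Without mutant 4, 12 of the 50 matrix genes were lower in place of 7 (16% of all genes) and 7 higher (13.4% of all genes). Without mutant 4 and WT 1, 11 were lower (14.6% of all genes) and 5 higher (11.6%), and without mutants 3 and 4, 15 were lower (14% of all genes) and 6 higher (9.73%). In each of these 3 settings Lama1, Lama4 and Tnc passed as lower in addition to the 7.

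Fibronectin was the only gene of its class to pass (1 of 4, 25%, against 25.1% of all genes). Fn1, the main matrix glycoprotein between the germ layers, had 23049, 10873, 17672, 17183 and 24094 scaled counts in mutants, against 10072, 10436, 13809.5, 11811 and 13341 in WT. Mutants 1, 3, 4 and 5 were above all WT embryos and mutant 2 was within their range (means 18574 ± 5304 in mutants and 11894 ± 1674 in WT, SD, n = 5 each; 0.60, SE 0.19, adjusted p = 0.0361). Adjusted p was 0.0549 to 0.0865 when mutant 1, 3 or 5 or WT 1, 2, 4 or 5 was left out. Sparc, a collagen-binding protein made in quantity by parietal endoderm, had 11627, 11063, 13536, 13077 and 11864 in mutants, against 14196, 11525, 8849, 9796 and 9715 in WT (0.19, SE 0.12, adjusted p = 0.259; 0.30 and 0.0497 without WT 1). Vcan, a hyaluronan-binding proteoglycan, differed by 0.13 (SE 0.39, adjusted p = 0.831), with its highest values, 478 and 752, in mutants 3 and 4, and by −0.54 without them (adjusted p = 0.116). Tnc, an anti-adhesive glycoprotein, had 34.9, 0, 19.0, 192 and 4.75 scaled counts in mutants, against 30.1, 101, 88.6, 77.8 and 46.9 in WT. Mutant 4 was above all other embryos and 3 of the other mutants were below all WT embryos (−2.08, SE 1.09, adjusted p = 0.181). Tnc was −3.00 without mutant 4 (adjusted p = 0.0226), −1.10 without mutant 2 (adjusted p = 0.377), −0.46 in edgeR (adjusted p = 0.765) and −0.45 in DESeq2 (adjusted p = 0.767).

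Of the 3 elastic fibre genes, none passed (against 25.1% of all genes). Elastin itself, Eln, had 31.1 to 61.7 scaled counts in mutants and 50.5 to 103 in WT (−0.57, SE 0.28, adjusted p = 0.153). Fbn1 had 57.6, 22.0, 202, 130.4 and 102 in mutants, against 124, 129, 175, 197 and 222 in WT (−1.02, SE 0.48, adjusted p = 0.140; −1.68 and 0.0153 without mutants 3 and 4). Fbn2, the fibrillin of early development, had 461, 290.1, 727, 648 and 771 in mutants, against 379, 404, 513, 385 and 559 in WT (0.30, SE 0.25, adjusted p = 0.397).

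Divided by merged exon length, Sparc was the highest matrix gene in both groups, at 3229.5 scaled counts per kilobase in mutants and 2855 in WT. Next in mutants came Fn1 (1589.6 per kilobase), Col4a1 (1426), Nid2 (1241) and Col4a2 (783). In WT these held 1018 (Fn1), 1569 (Col4a1), 1187 (Nid2) and 747 (Col4a2) per kilobase. Col1a1 stood at 498 per kilobase in mutants, rank 6 of the 58, against 100.5 in WT, rank 13. Col26a1 stood at 172 per kilobase in mutants, rank 11, against 21.4 in WT, rank 25. In the opposite direction Col18a1 held 433 per kilobase in mutants, rank 8, against 821 in WT, rank 5, and Col9a3 and Col13a1 held 14.6 and 17.4 in mutants, against 64.2 and 57.1 in WT. All 58 genes together took 0.231% to 0.396% of reads in mutants and 0.279% to 0.359% in WT, which overlap, with mutant 4 and WT 1 at the top of their groups.

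The 8 genes under the minimum were Lama2, Lama3, Lamc3, Col4a3, Col4a4, Col6a4, Col6a5 and Col8a2, none of which exceeded 26.3 scaled counts in any embryo. A count of 0 allows up to 3 reads, or 2.51 to 3.41 scaled counts depending on the library. In 7 of them the groups overlapped. Col8a2, a short-chain collagen of the cornea, was at 0, 1.91, 0, 6.06 and 0 scaled counts in mutants, against 9.19, 9.06, 22.7, 26.3 and 21.6 in WT, so that all mutants were below all WT embryos; it was not tested.

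Enzymes and chaperones that fold and trim collagen numbered 26 tested, of which 6 were higher (23.1%, against 11.4% of all genes) and 2 lower (7.69%, against 13.8%), with a median log2 fold change of 0.17. Serpinh1, the collagen-specific chaperone, had 20687 to 29687 scaled counts in mutants and 9929 to 14856 in WT (0.85, SE 0.12, adjusted p = 0.000658). Pcolce, which enhances removal of the C-propeptide of fibrillar procollagen, had 719 to 1243 in mutants and 215 to 392.4 in WT (1.72, SE 0.19, adjusted p = 0.000107). The prolyl hydroxylase subunit P4ha1 (0.52, adjusted p = 0.000742) and the prolyl isomerase Ppib (0.47, adjusted p = 0.00294) also rose. In these genes, named for the smallest adjusted p of the list, the groups did not overlap. In the whole list 5 genes had every mutant above every WT embryo (against 7.14% of all genes). Every mutant was below every WT embryo in 2 (against 9.97%). Whether this list differs from all genes was not tested.

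Matrix receptors were higher in 5 of 19 (26.3%, against 11.4% of all genes) and lower in 3 (15.8%, against 13.8%), with a median of 0.22. Itga4, the α4 chain of integrins that bind fibronectin and VCAM1, had 1191, 1141, 2393, 1246 and 2106 scaled counts in mutants, against 52.7, 73.5, 55.6, 106 and 36.6 in WT. Even the lowest mutant stood far above the highest WT embryo (4.63, SE 0.29, adjusted p = 3.59e-06). Itgb8, part of an integrin that activates TGF-β, rose by 1.55 (SE 0.33, adjusted p = 0.00552), and Itga9 rose by 0.85 (SE 0.18, adjusted p = 0.00621). Ddr1, a receptor tyrosine kinase for collagen, fell (−0.66, SE 0.13, adjusted p = 0.00372).

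Of 38 other matrix glycoproteins 5 were higher (13.2%, against 11.4% of all genes) and 5 lower (13.2%, against 13.8%), shares near those of all genes, with a median of −0.08. Fbln2, a fibulin of basement membranes and cushion tissue, rose by 1.59 (SE 0.20, adjusted p = 0.000289), Matn4, a matrilin, by 3.36 (SE 0.46, adjusted p = 0.000426) and the Sparc homologue Sparcl1 by 2.83 (SE 0.51, adjusted p = 0.00214). Thbs3, a thrombospondin, fell (−1.48, SE 0.27, adjusted p = 0.00259). Small proteoglycans and hyaluronan genes had 4 of 10 higher (40%, against 11.4% of all genes) and 2 lower (20%, against 13.8%), with a median of 0.15. Bgn, the proteoglycan biglycan, had 353, 258, 503, 111 and 329.5 scaled counts in mutants, against 21.7, 36.2, 31.8, 35.4 and 40.4 in WT, with no overlap (3.06, SE 0.35, adjusted p = 0.000153). Hapln1, which links hyaluronan to versican and related proteoglycans, rose by 1.64 (SE 0.17, adjusted p = 6.47e-05). The neural proteoglycans Ncan (−3.85, SE 0.63, adjusted p = 0.00139) and Bcan (−2.84, SE 0.71, adjusted p = 0.0131) fell, at 0 to 16.1 and 0 to 6.06 scaled counts in mutants, against 52.5 to 101 and 12.1 to 114 in WT.

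Summed markers of extra-embryonic mesoderm and allantois were higher in the mutants, in which Col1a1, Col26a1, Bgn and Itga4 were also higher. The sum of 10 such markers was 26320 to 38260 scaled counts in mutants and 19089 to 24571 in WT, with no marker at 0. Of the 10, 4 passed as higher (40%, against 11.4% of all genes) and none as lower (against 13.8%). The other 6 did not pass, and the log2 fold changes of the list ran from −0.55 to 3.67 (median 0.38). Tbx4 was at 1079 to 3023 in mutants and 87.4 to 329.5 in WT, and Pitx1 at 1515 to 4410.0 in mutants and 385 to 836 in WT. Markers of paraxial mesoderm were lower in 9 of 10 genes (90%, against 13.8% of all genes) and higher in none (against 11.4%). Their sum was 198 to 2842 scaled counts in mutants and 5754 to 7960 in WT, with mutant 4 highest among mutants. Ripply2 was at 0 in at least 1 library. The part of these cell populations in the matrix values was not tested. Lengths, strands and overlaps rest on GENCODE M21, and since the library kit does not mark strand, reads of 19 matrix genes, among them Fn1, Col9a3, Nid1 and Nid2, cannot be told apart from those of an overlapping gene where their exons coincide.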

How the data were processed

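Whole-embryo RNA (1.9 to 2 ng, RNA integrity number 9.7 to 10) was amplified with the SMART-Seq v4 kit, per the labels' protocols. Per the submitters' processing notes, cutadapt 1.6, STAR 2.5.0a, HTSeq 0.5.3 and DESeq were used with build mm10, with settings not given in the sources used. The deposited table holds, per the file headers, scaled counts, a count-derived signal that the authors divided by a size factor per library. Whole reads were recovered from it for all 20006 genes in each embryo (within 0.01 reads). Libraries held 20744547 to 28505209 reads; without molecular identifiers, limits cover counting error only.

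Tested were genes whose scaled counts averaged 10 or more, with limma 3.58.1 (intensity trend, log2(scaled count + 1), R 4.3.3, Benjamini-Hochberg, adjusted p of 0.05), 5 mutants against 5 WT; log2 fold changes are differences of mean log2(scaled count + 1): the added 1 shrinks the values of low genes, and where embryos spread widely the difference can exceed the log2 ratio of the group means, as for Tnc and Lamb3. Alternatives were edgeR 4.0.16 and DESeq2 1.42.0 on the recovered reads, pseudocounts of 0.5 and 5, no minimum or a mean of 50, TMM rescaling, the replicate number as a block, each embryo left out, and 2 pairs of libraries left out (chosen after the data were seen). In edgeR 1671 genes were higher and 1925 lower, and in DESeq2 2209 were higher and 2324 lower. Ratios were compared by two-sided exact permutation tests. The scripts were tested on simulated data. Gene positions, exon lengths and overlaps came from GENCODE M21, which held 19935 of the listed IDs (99.65%).

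The matrix genes and the other lists were chosen with earlier results of these data known. Named were Axin1 and Axin2, any matrix gene, up to 4 members of each other list and up to 3 of each marker list with the smallest adjusted p; markers at 0 and those named for their level in mutant 4 were chosen after their values were seen. The values of 1 tested matrix gene, which stays in the counts and medians, are not reported here.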

Additional observations from a re-analysis of the deposited data

Results flagged for a closer look

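Among 112 groups of 5 embryos examined for a single distant value, 10 held an embryo whose gap to its nearest neighbour was over Dixon's limit as a share of the whole range, which chance passes in about 1 group in 20.

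Lama1, Lamb1 and Lamc1 shared such an embryo in WT 1, with Lama1 at 5055 scaled counts (1279 to 1839.7 in the other WT embryos), Lamb1 at 7210 (3434 to 4136) and Lamc1 at 6146 (2555 to 2992). Nid1 stood out in mutant 4 at 6010 scaled counts, against 626 to 1014 in the other mutants. In the same embryo the log2 ratio of Lama5 to Lama1 was −2.04 (−0.11 to 0.52 in the other mutants) and that of Nid2 to Nid1 was −0.22 (2.62 to 3.37). The remaining values were low and in WT embryos: Col13a1 at 231.7 scaled counts in WT 3 (265.7 to 274.8 in the others), Col24a1 at 4.54 in WT 3 (16.2 to 21.6), Col25a1 at 1.01 in WT 4 (9.06 to 15.9) and Col4a6 at 7.52 in WT 1 (53.5 to 81.7).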

How the results depend on the processing

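Counts of matrix genes moved with 1 tool and with 1 library: 10 were higher in DESeq2 in place of 6, and the number lower was 6 to 12 with 1 embryo left out (12 without mutant 4), 15 without mutants 3 and 4 and 11 without mutant 4 and WT 1, in place of 7. With 1 embryo left out 4 to 8 matrix genes were higher. Of all genes, 2209 were higher in DESeq2 and 1071 to 2061 with 1 embryo left out (1071 without WT 5), in place of 1754.

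In the other lists with 1 embryo left out, 1 to 4 collagen modification genes were lower (2 in the report), 3 to 6 matrix receptors were lower (3; 6 also without mutants 3 and 4 and without mutant 4 and WT 1), and 3 to 6 other glycoproteins were higher (5; 9 in DESeq2) and 3 to 7 lower (5; 9 without mutants 3 and 4). With a minimum mean of 50, 0 small proteoglycans were lower (2).

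The replicate numbers showed no sign of pairing. Deviations of same-numbered embryos had correlations of −0.079 to 0.079, against −0.161 to 0.117 for differently numbered ones. Since the litters are not given, such correlations cannot settle whether embryos were paired. With the replicate block the ratios of Col1a1 to Col1a2 (2.59, adjusted p = 0.188), Col4a2 to Col4a1 (0.21, adjusted p = 0.250) and Fbn2 to Fbn1 (1.32, adjusted p = 0.188) did not pass, in a sign-flip test whose smallest p is 0.0625, and the limma counts were 6 higher and 7 lower. With 1 embryo left out the difference was 0.16 to 0.25 for Col4a2 to Col4a1, −0.21 to 0.64 for Lama5 to Lama1 and −0.27 to 0.70 for Nid2 to Nid1.

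Genes whose small differences changed sign, none of them past the threshold in the report, ranged with 1 embryo left out over −0.60 to 0.29 for Col11a2, −0.70 to 0.017 for Col1a2, −0.0075 to 0.20 for Col4a2, −1.33 to 0.094 for Col5a3, −0.13 to 0.12 for Lamb2, −0.19 to 0.25 for Lamc1, −0.57 to 0.25 for Nid1, −0.037 to 0.13 for Nid2, −0.20 to 0.37 for Vcan and −0.12 to 0.073 for Axin2. In edgeR Col1a2 was 0.030, Nid1 0.46 and Axin2 0.020, and in DESeq2 Col1a2 was 0.038, Col5a3 0.022 and Axin2 0.024. DESeq2 gave no adjusted p for Lama1 and Nid1. Without mutants 3 and 4 Lamc1 was −0.27, Vcan −0.54 and Axin2 0.15, and without mutant 4 and WT 1 Vcan was −0.25 and Axin2 0.039. Single values were compared for the 49 matrix genes shown, Axin1, Axin2 and the genes of each other list that passed with the smallest adjusted p. Those were up to 4 genes of each list and up to 3 of each marker list, and some are not named here. Over these genes and all alternatives, 1576 of the single values kept direction and call, 34 gained and 35 lost the call and 38 changed sign. What caused these changes was not tested. What size of difference 5 embryos in each group can show was not tested.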
